A study of Homo sapiens with 40 samples.

Results

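Depletion of 1 coregulator of the glucocorticoid receptor was set directly against depletion of another: A549 cells given siRNA against CoCoA (gene CALCOCO1; siCoCoA) and A549 cells given siRNA against CCAR1 (siCCAR1), both exposed to 100 nM dexamethasone (dex) for 6 h. The comparison took 4 arrays titled siCoCoA_6h and 4 titled siCCAR1_6h, 8 of the 40 arrays of the series; they were chosen by title alone, and the nonspecific siRNA (siNS) does not enter the difference. The wider study depleted 4 coregulators (CCAR1, CoCoA, CCAR2 and ZNF282), each with and without hormone. A549 is an established line from a human lung carcinoma, and every group, controls included, was transfected with siRNA and then held in hormone-free medium before treatment. Beside the 8 arrays, levels are given for siNS cells in dex (6 arrays), for siCoCoA and siCCAR1 cells in the ethanol vehicle (4 arrays each), and for siNS cells in ethanol (6 arrays). The titles of the vehicle arrays say 0 h, although by the treatment text the vehicle was also applied for 6 h. The labels give neither the siRNA sequences nor the number of siRNAs used per target, so an effect of the target and an effect of the siRNA itself cannot be told apart, and all values come from 1 cell line. Whether arrays of a group came from separate cultures is not stated, so p-values reflect only how far these arrays scatter, which may be technical.

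CoCoA is a coiled-coil coactivator that binds the NCOA family of nuclear receptor coactivators, and CCAR1 is a cell cycle and apoptosis regulator that links nuclear receptors and p53 to the Mediator complex. Both act as coactivators for the glucocorticoid receptor (GR, gene NR3C1), the ligand-activated transcription factor through which dex raises metabolic and anti-inflammatory genes and restrains NF-kB targets. A separate pathway also enters the results: cytosolic sensors of double-stranded RNA drive interferon beta, whose receptor signals through STAT and IRF9 proteins to genes that carry an interferon-stimulated response element.

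Values are log2 normalized intensities; a difference is siCoCoA minus siCCAR1 in dex, ± SE of a limma fit over 10608 genes, with 4 arrays in each group. A gene is called where its p-value, adjusted over all genes tested, was under 0.05, and a group whose mean was under 5 is described as near background. Low levels can compress differences, so the folds of near-background genes may be understated, which was not tested. Over the genes tested, arrays of the same group correlated at 0.981 to 0.992 and arrays of different groups at 0.964 to 0.976, and the median difference of all genes was −0.01. The number of arrays limits the precision.

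Each siRNA target was checked first. CALCOCO1 read 4.48, 4.43, 4.54 and 4.56 on the siCoCoA arrays and 5.51, 5.78, 5.86 and 5.72 on the siCCAR1 arrays. The siNS arrays in dex ran from 4.95 to 5.68 with a median of 5.39. All siCoCoA arrays lay below all others and near background, and the difference was −1.21 ± 0.15 (adjusted p = 1.76e-07). CCAR1 read 5.40, 6.26, 5.53 and 5.58 on the siCoCoA arrays and 4.56, 4.64, 4.62 and 4.66 on the siCCAR1 arrays, against 4.60 to 6.10 (median 5.73) in siNS cells. The CCAR1 difference was 1.07 ± 0.21 (adjusted p = 0.000204), the siCCAR1 level was near background, and 1 siNS array reached as low. In ethanol the CALCOCO1 difference was −0.94, which was called, and that of CCAR1 was 0.52, which was not (adjusted p = 0.079). The transcript of CCAR2, a paralog of CCAR1 and itself a GR coregulator of the study, was also unequal: 7.88, 7.99, 8.04 and 7.23 in siCoCoA cells and 9.08, 8.95, 8.98 and 8.60 in siCCAR1 cells. Its difference was −1.12 ± 0.16 (adjusted p = 1.77e-06), with the siCCAR1 arrays in the range of siNS (8.59 to 9.14) and every siCoCoA array below it. The part of lower CCAR2 in the results that follow was not tested. NR3C1 itself differed by 0.05 ± 0.18 (adjusted p = 0.88) and ZNF282 by −0.03 ± 0.23 (adjusted p = 0.941).

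One array stood apart on a group of genes. On siCCAR1 array 2 the mean log2 level of 43 interferon-stimulated effector genes was 9.01, against 7.79 to 8.02 on the other siCCAR1 arrays and 9.48 to 9.84 on the siCoCoA arrays. Counts of the interferon-related lists are therefore also given without that array, while differences of single genes include it unless stated.

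In dex, 2601 genes (24.5% of those tested) differed: 1350 (12.7%) were higher and 1251 (11.8%) lower in siCoCoA than in siCCAR1 cells. At least 2-fold differences were more often on the higher side, with 234 genes higher and 78 lower. The arrays of the groups did not overlap for 1425 genes higher (13.4%) and 1415 lower (13.3%). Of the 12 largest rises, 8 were members of a list of interferon-stimulated effectors, and the others were BATF2, TXNIP, TMEM140 and TCN1. CEMIP2, a cell-surface hyaluronidase, led the falls. The plot of single arrays shows both sets beside siNS cells.

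**Figure D1:**
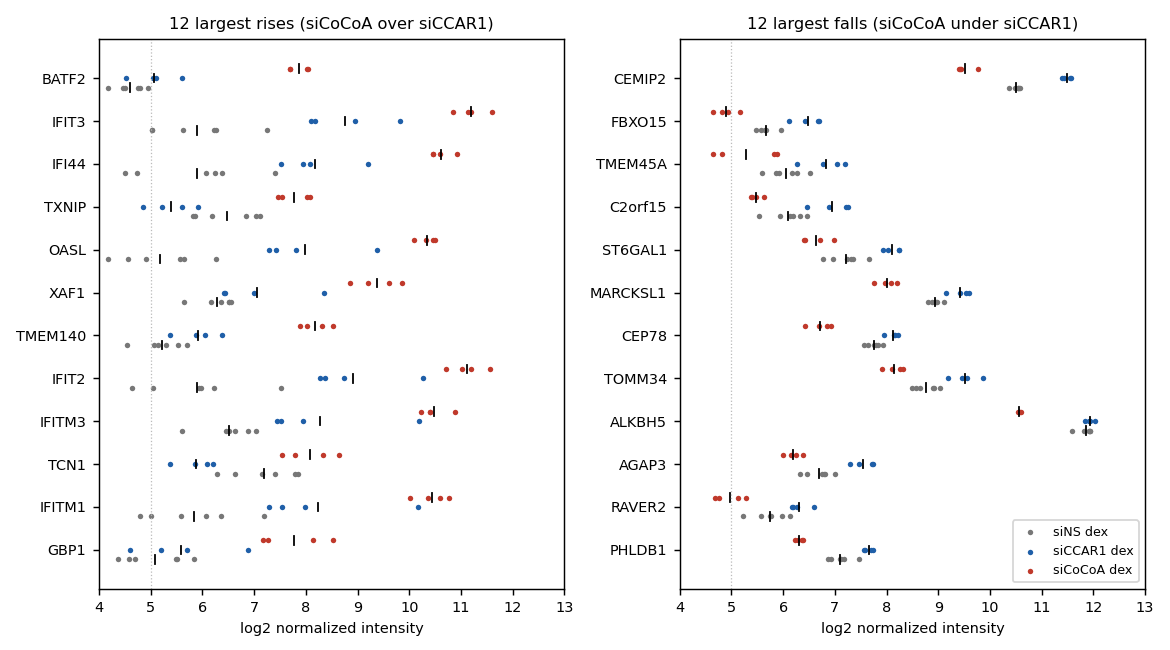
Log2 normalized intensity of every dex-treated array (points) and group mean (vertical ticks) for the 12 genes with the largest rise and the 12 with the largest fall among called genes; the dotted line marks the level of 5 under which a group mean is called near background. Among the rises, a siCCAR1 array reaches the siCoCoA range for IFITM1 alone, and CEMIP2 shows siNS arrays (10.36 to 10.57) between the siCoCoA and siCCAR1 arrays.

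BATF2, a basic leucine zipper factor induced by interferon, read 8.04, 8.03, 7.69 and 7.70 on the siCoCoA arrays and 4.53, 5.60, 5.04 and 5.10 on the siCCAR1 arrays. The siNS arrays spanned 4.18 to 4.95 with a median of 4.63. All siCoCoA arrays were far above the others, while the siCCAR1 arrays were close to the background level; the difference was 2.80 ± 0.29, or 6.94-fold (adjusted p = 3.72e-09). IFIT3, which binds viral RNA complexes and adaptor proteins of the antiviral response, read 10.85, 11.60, 11.20 and 11.13 against 8.18, 9.82, 8.96 and 8.09. In siNS cells IFIT3 spanned 5.02 to 7.26 with a median of 5.92. The IFIT3 levels therefore formed 3 separate steps, siNS lowest and siCoCoA highest, and the step between the depletions was 2.44 ± 0.43, or 5.41-fold (adjusted p = 5.45e-05). TMEM140, a transmembrane protein gene, read 7.88, 8.32, 8.02 and 8.52 in siCoCoA cells and 5.38, 6.38, 5.88 and 6.06 in siCCAR1 cells. Its groups did not overlap, and the difference was 2.26 ± 0.24, or 4.80-fold (adjusted p = 6.18e-09).

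Of 52 interferon-stimulated effector genes listed, 43 had a probe and all 43 passed the intensity filter. Of these, 37 were higher in siCoCoA cells, against 12.7% of all genes tested, and all 43 differences were positive, from 0.16 to 2.44 with a median of 1.39. The arrays of the groups did not overlap for 31 of them. Without siCCAR1 array 2 the count was 38, and with the replicate number as a block it was 40. Other members with large differences were IFI44, a cytoplasmic protein of the antiviral state (2.43 ± 0.46), OASL, an oligoadenylate synthetase-like antiviral protein (2.37 ± 0.42), and XAF1, a proapoptotic antagonist of XIAP (2.33 ± 0.44). IFIT2, a partner of IFIT3, differed by 2.21 ± 0.48, and the membrane restriction factor IFITM3 by 2.21 ± 0.47. The related IFITM1 differed by 2.19 ± 0.58 (adjusted p = 0.00495), and its array 2 of siCCAR1, at 10.18, lay within the siCoCoA range of 10.02 to 10.77. GBP1, a guanylate-binding GTPase that acts on intracellular pathogens, differed by 2.19 ± 0.46.

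Set against siNS cells in dex, a control that both comparisons share, members of this list were higher in both depletions. In siCoCoA cells 42 of the 43 genes were higher than in siNS cells (11% of all genes tested were), with a median of 2.73. In siCCAR1 cells 28 were higher (10.1% of all genes), with a median of 1.08. The mean level of the list was 9.50, 9.84, 9.48 and 9.49 on the siCoCoA arrays, 7.83, 9.01, 8.02 and 7.79 on the siCCAR1 arrays, and 6.16 to 7.23 on the siNS arrays. No siCCAR1 array reached the lowest siCoCoA array on this mean. The gap was also present without hormone: in ethanol the list averaged 8.60, 9.34, 8.92 and 8.77 on siCoCoA arrays and 7.33, 8.18, 7.41 and 7.10 on siCCAR1 arrays, and 37 genes were again higher (10.1% of all genes were higher in ethanol). Array 2 was the highest of its group in all 4 of these sets of siCoCoA and siCCAR1 arrays.

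**Figure D2:**
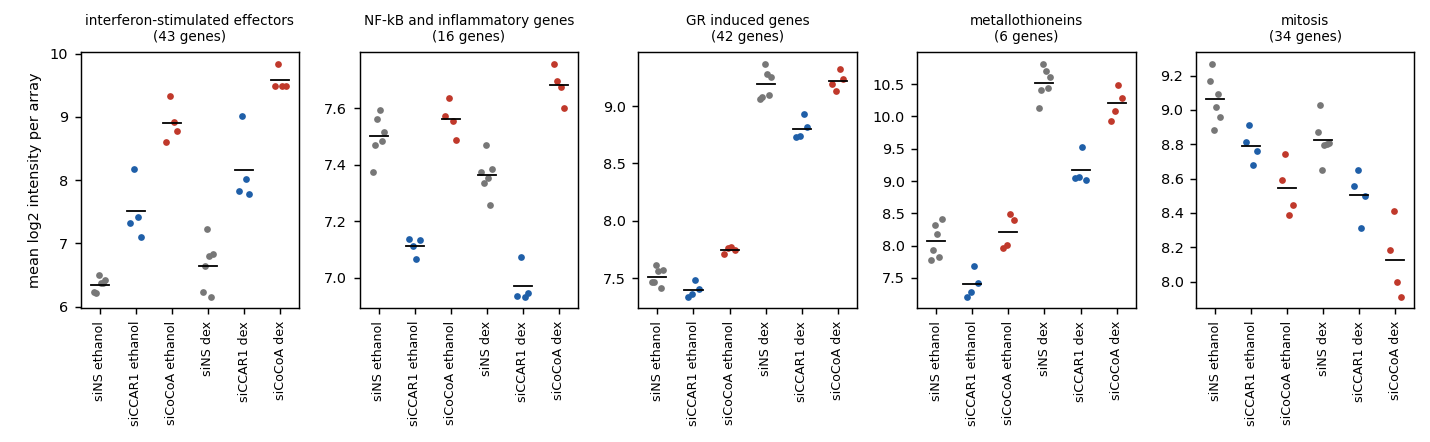
Mean log2 intensity of the tested genes of 5 lists on every array (points; horizontal lines are group means), for siNS, siCCAR1 and siCoCoA cells in ethanol and in dex; the vertical axes differ between panels. The interferon panel steps from siNS (6.16 to 7.23 in dex) over siCCAR1 (7.79 to 9.01) to siCoCoA (9.48 to 9.84). In the panels of NF-kB genes, GR induced genes and metallothioneins, siCCAR1 has the lowest group mean both in ethanol and in dex.

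Since the largest rises were interferon-stimulated genes, their promoters are shown for the element through which interferon acts. RefSeq promoters (300 bases, from 250 before to 50 after the start, on GRCh38.p14) were searched on both strands for GAAANNGAAA, whose reverse complement is TTTCNNTTTC, a simplified interferon-stimulated response element. It occurred in 996 of 27305 promoters of the table (3.65%) and in 249 of the 8614 tested genes with a promoter there (2.89%). Among genes called higher it occurred in 65 of 1077 (6.04%), and among those higher by at least 2-fold in 29 of 172 (16.9%). Among genes called lower it occurred in 21 of 1033 (2.03%), and among genes not called in 163 of 6504 (2.51%). Of the interferon-stimulated effectors, 23 of the 35 with a promoter held it (65.7%). The following stretches of 80 bases, 5′ to 3′ on the strand of the gene, lie upstream of 5 genes of the higher group, with each match in capitals. They are IFIT3 (chr10:89327840-89327919, plus strand), IFITM3 (chr11:320861-320940, minus strand), TMEM140 (chr7:135147984-135148063, plus strand), GBP1 (chr1:89065291-89065370, minus strand) and IFIH1 (chr2:162318685-162318764, minus strand).
IFIT3: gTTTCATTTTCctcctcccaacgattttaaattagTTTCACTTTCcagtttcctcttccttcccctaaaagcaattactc
IFITM3: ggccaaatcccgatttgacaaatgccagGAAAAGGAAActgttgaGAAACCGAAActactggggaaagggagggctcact
TMEM140: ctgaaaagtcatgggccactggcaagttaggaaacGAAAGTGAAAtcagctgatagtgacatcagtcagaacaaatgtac
GBP1: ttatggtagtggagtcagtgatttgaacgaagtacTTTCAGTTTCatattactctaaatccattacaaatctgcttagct
IFIH1: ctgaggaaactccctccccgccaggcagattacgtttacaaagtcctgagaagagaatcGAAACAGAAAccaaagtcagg
IFIT3 and IFITM3 each show 2 matches in the printed stretch and the other genes 1. Of the 12 largest rises, BATF2, XAF1, TXNIP and TCN1 held no match in their 300 bases, nor did RIGI and IFNB1; OASL, IFIT2, USP18 and IRF7 had no entry in the table. A match describes the letters and is not evidence of a bound site.

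Among the sensors of double-stranded RNA, 18 genes were listed, 15 had a probe and 13 were tested. Of these, 6 (46.2%) were higher and 1 (7.69%) lower, beside 12.7% and 11.8% of all genes. The median was 0.43, and the counts were the same without siCCAR1 array 2. IFIH1, the cytosolic sensor of long double-stranded RNA also called MDA5, read 10.11, 10.12, 10.03 and 9.81 on the siCoCoA arrays and 7.65, 8.83, 8.04 and 7.54 on the siCCAR1 arrays. The siNS arrays spanned 5.29 to 7.02 with a median of 6.53. These groups did not overlap, siCCAR1 lying between siNS and siCoCoA, and the difference was 2.00 ± 0.31, or 4.01-fold (adjusted p = 6.91e-06). RIGI, the sensor of RNA with a triphosphate end, read 8.84, 8.96, 8.95 and 8.68 against 6.61, 7.69, 6.89 and 6.50, a difference of 1.94 ± 0.29 (adjusted p = 5.28e-06) in which again no arrays overlapped. TLR3, the endosomal sensor, differed by 0.99 ± 0.20 (adjusted p = 0.000411) with a near-background siCCAR1 level. EIF2AK2, the RNA-activated kinase PKR, was higher by 0.67 ± 0.18 (adjusted p = 0.00451), and its activator PRKRA was lower, by −0.40 ± 0.11 (adjusted p = 0.00738). DDX60, a helicase that promotes RIG-I-like signalling, was higher by 1.10 ± 0.33 (adjusted p = 0.0141), a call lost without siCCAR1 array 4, where the difference was 0.93. DHX58, the regulator LGP2, was higher by 0.96 ± 0.29 (adjusted p = 0.0143), a call lost without siCoCoA array 2, where it was 0.84. The siCCAR1 level of DHX58 was near background. The adaptors and kinases downstream did not pass the test: MAVS differed by 0.08 ± 0.24, TICAM1 by −0.04 ± 0.24, TBK1 by 0.18 ± 0.11, IKBKE by 0.43 ± 0.19, TRAF3 by −0.19 ± 0.19 and TANK by 0.05 ± 0.14.

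Of 28 interferons, receptors, STAT and IRF genes and their inhibitors, 24 had a probe and 21 were tested. Of these, 6 (28.6%) were higher and 1 (4.76%) lower, beside 12.7% and 11.8% of all genes, with a median of 0.34. With the replicate number as a block, 9 were higher and 2 lower, IFNL2 (adjusted p = 0.0328), IRF1 (0.0129) and STAT3 (0.0111) being added on the higher side and IL10RB (0.0117) on the lower. Without siCoCoA array 3 the higher count was 3, and without siCCAR1 array 2 it was 4 with 0 lower in limma, where 2 were lower at an unadjusted p under 0.05 over all arrays. IFNB1, interferon beta, read 6.05, 6.51, 5.60 and 4.69 on the siCoCoA arrays and 4.44, 4.86, 4.29 and 4.33 on the siCCAR1 arrays, with siNS at 4.26 to 4.59. Only siCoCoA array 4 lay within the siCCAR1 range, both siCCAR1 and siNS were near background, and the difference was 1.23 ± 0.31 (adjusted p = 0.00299). The type III interferon genes IFNL1 (0.66 ± 0.40, adjusted p = 0.242), IFNL2 (0.75 ± 0.34, 0.108) and IFNL3 (0.34 ± 0.21, 0.242) were not called. IFNL1 reached 6.28 on siCCAR1 array 2, the array with the highest interferon-stimulated levels of its group, against 4.47 to 4.87 on the others.

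Among the regulators of this list, USP18, the protease that removes ISG15 and restrains the interferon receptor, had levels of 9.44, 9.52, 9.49 and 8.70 against 7.59, 8.46, 7.73 and 7.47, a difference of 1.48 ± 0.30 (adjusted p = 0.000374) with no overlap. IRF7, the factor that amplifies interferon transcription, differed by 1.23 ± 0.36 (adjusted p = 0.0107), and its probes by 0.68 to 1.64. IRF9, the DNA-binding subunit of the STAT complex, was higher by 0.68 ± 0.23 (adjusted p = 0.029), a call lost without siCoCoA array 1 (0.68), 2 (0.66) or 3 (0.64), or siCCAR1 array 2 (0.66) or 4 (0.64). TYK2, a kinase of the interferon receptor and the single gene called lower, differed by −0.51 ± 0.19 (adjusted p = 0.0462), a call that held without siCoCoA array 2 but was lost without any one of the other arrays, with differences of −0.45 without siCoCoA array 1 or siCCAR1 array 1, −0.48 without siCoCoA array 4, −0.52 without siCoCoA array 3, −0.53 without siCCAR1 array 2, and −0.54 without siCCAR1 array 3 or 4. The receptor chains and kinases stayed near each other: IFNAR1 differed by −0.01 ± 0.23, IFNAR2 by 0.20 ± 0.11, JAK1 by 0.01 ± 0.15 and JAK2 by 0.22 ± 0.16, and none of these passed the test. IRF3, the factor that sensors activate, differed by −0.24 ± 0.16 (adjusted p = 0.306).

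Genes of peptide presentation on MHC class I followed the same sign. All 19 tested of 21 listed had positive differences, with a median of 0.68, and 7 (36.8%) were called higher, beside 12.7% of all genes. This count rested on single arrays: it was 12 with the replicate block and 13 without siCCAR1 array 2, and 4 without siCoCoA array 2, siCCAR1 array 1 or siCCAR1 array 4. TAP1, the peptide transporter, read 11.32, 11.64, 11.38 and 11.44 against 9.83, 11.11, 10.11 and 9.96, a difference of 1.19 ± 0.23 (adjusted p = 0.000169) in which array 2 again stood nearest to the siCoCoA arrays. NLRC5, the transactivator of class I genes, differed by 1.06 ± 0.16 (adjusted p = 7.21e-06), with siCCAR1 arrays at 4.33 to 4.57, near background, and siCoCoA arrays at 5.30 to 5.76. Against siNS, 17 of the 19 were higher in siCoCoA cells (11% of all genes were) and 10 in siCCAR1 cells (10.1% of all genes).

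**Figure D3:**
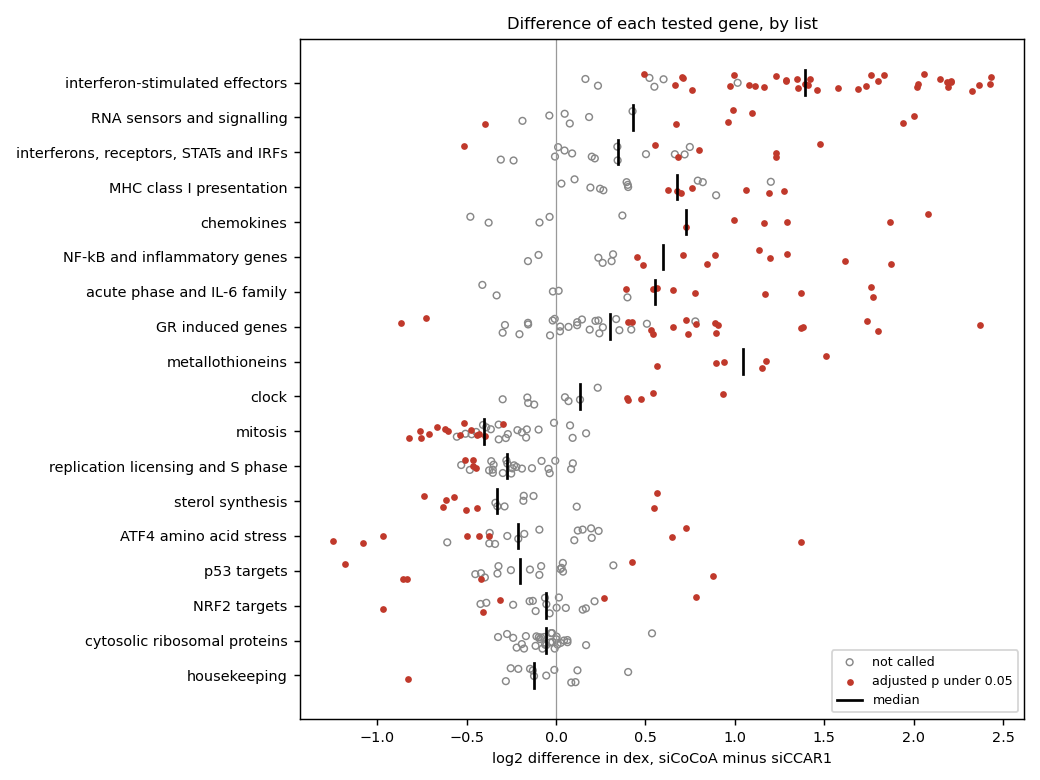
Log2 difference in dex (siCoCoA minus siCCAR1) of each tested gene in 18 lists; red points passed an adjusted p under 0.05, open points did not, and black ticks are list medians. The interferon-stimulated effectors (median 1.39) and metallothioneins (median 1.05) lie to the right of 0 throughout, while most mitosis genes lie to the left (median −0.40) and the ribosomal protein genes are centred near 0.

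Inflammatory genes were higher in siCoCoA cells too, but they took another position relative to siNS. Of 16 tested NF-kB and inflammatory genes (24 listed, 19 with a probe), 10 (62.5%) were higher, beside 12.7% of all genes, with a median of 0.60. In ethanol 6 of the 16 were also higher (10.1% of all genes were), with a median of 0.32. Against siNS in dex, 5 of the 16 were higher and 1 lower in siCoCoA cells (11% and 9.07% of all genes were). In siCCAR1 cells, 6 of the 16 were lower (8.9% of all genes were lower there). PTGS2, the inducible cyclooxygenase that dex represses, read 12.33, 12.19, 12.04 and 11.84 on the siCoCoA arrays and 10.52, 10.35, 10.31 and 9.72 on the siCCAR1 arrays. The siNS arrays, at 11.07 to 11.58 with a median of 11.20, lay between the depletions without overlapping either. The PTGS2 difference was 1.87 ± 0.16, or 3.66-fold (adjusted p = 1.26e-10). PTGES, the prostaglandin E synthase that acts after it, read 9.62, 9.54, 9.21 and 9.40 against 8.25, 8.24, 8.17 and 8.33. Here the siNS arrays (9.25 to 9.87) overlapped with siCoCoA and not with siCCAR1, and the difference was 1.20 ± 0.15 (adjusted p = 1.76e-07). TNFAIP6, a hyaluronan-binding protein induced by TNF, differed by 1.62 ± 0.26, and the cytokine IL32 by 1.14 ± 0.15. IL6 differed by 1.29 ± 0.24 (adjusted p = 0.00013), with its siCCAR1 level near background.

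Of 15 chemokines, 14 had a probe and 11 were tested. Of these, 6 (54.5%) were higher, beside 12.7% of all genes, with a list median of 0.73. CXCL10, which interferon induces, read 7.16, 8.09, 7.40 and 7.21 against 4.74, 6.51, 5.23 and 5.06, and siNS arrays stood at 4.73 to 5.42. Of the siCCAR1 arrays, array 2 alone lay above the siNS range, and the difference was 2.08 ± 0.43 (adjusted p = 0.000433). CCL20, a ligand of CCR6, read 9.50, 9.54, 9.71 and 9.39 against 7.56, 8.27, 7.65 and 7.20, with siNS at 7.97 to 8.82. It was higher than siNS in siCoCoA cells (1.19) and lower in siCCAR1 cells (−0.67), both called, and differed between them by 1.87 ± 0.23 (adjusted p = 1.65e-07). The neutrophil chemoattractants CXCL2 (1.29 ± 0.20) and CXCL8 (1.00 ± 0.20) and the monocyte chemoattractant CCL2 (1.16 ± 0.18) were also higher, and for each siCCAR1 lay below siNS by a called amount (−0.96, −0.52 and −0.59).

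Of 18 acute phase and IL-6 family genes, 17 had a probe and 14 were tested. Of these, 9 (64.3%) were higher, beside 12.7% of all genes, with a list median of 0.55. SAA1, serum amyloid A, read 6.59, 7.65, 7.48 and 7.57 on siCoCoA arrays and 5.33, 5.99, 5.33 and 5.53 on siCCAR1 arrays, with siNS at 6.84 to 7.47. The siCoCoA arrays surrounded the siNS level and all siCCAR1 arrays lay below it; the difference was 1.77 ± 0.21 (adjusted p = 5.87e-08). SERPINA3, the antichymotrypsin of the acute phase, read 8.21, 8.27, 8.97 and 8.44 against 6.50, 6.34, 7.13 and 6.87, with siNS at 8.57 to 9.42. It was lower than siNS by −2.31 in siCCAR1 cells and by −0.55, which was not called, in siCoCoA cells, and the difference was 1.76 ± 0.23 (adjusted p = 5.63e-07). LCN2, the siderophore-binding lipocalin, differed by 1.37 ± 0.16 (adjusted p = 7.95e-08).

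Genes that GR induces were next. Of 50 listed, 46 had a probe and 42 were tested. Of these, 16 (38.1%) were higher and 2 (4.76%) lower, beside 12.7% and 11.8% of all genes. The median was 0.30 beside −0.01 for all genes. The gap was also present without hormone: in ethanol 17 of the 42 were higher and 2 lower, with a median of 0.22. Of all genes, 10.1% were higher and 9.46% lower in ethanol. The size of the dex response differed between the depletions by a called amount for 0 of them. Against siNS in dex, 14 of the 42 were lower and 1 higher in siCCAR1 cells (8.9% and 10.1% of all genes were). In siCoCoA cells 5 were lower (9.07% of all genes were) and 7 higher (11% of all genes). TXNIP, the thioredoxin-binding inhibitor of glucose uptake, read 7.54, 7.46, 8.02 and 8.08 on siCoCoA arrays and 5.23, 4.84, 5.92 and 5.61 on siCCAR1 arrays. The siNS arrays, at 5.81 to 7.12, lay below all siCoCoA arrays and met the siCCAR1 range at their low end. TXNIP was above siNS by 1.30 in siCoCoA cells and below it by −1.07 in siCCAR1 cells, both called, and its difference of 2.37 ± 0.31, or 5.18-fold (adjusted p = 3.33e-07), was the largest of the 42. FBXL16, an F-box protein gene, read 8.53, 7.60, 7.89 and 7.95 against 6.02, 6.45, 6.23 and 6.07, with siNS at 7.33 to 8.54. Only the siCCAR1 arrays left the siNS range of FBXL16, and the difference was 1.80 ± 0.24 (adjusted p = 7e-07). CAVIN2, a coat protein of caveolae, differed by 1.74 ± 0.22 and RGS2, which limits G protein signalling, by 1.38 ± 0.14, and both lay above siNS in siCoCoA cells and below it in siCCAR1 cells by called amounts.

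All 6 tested metallothioneins, the zinc and copper binding proteins that glucocorticoids and metals induce, were higher in siCoCoA cells, with a median of 1.05; 11 were listed, 10 had a probe and 4 did not pass the intensity filter. In ethanol 4 of the 6 were also higher (10.1% of all genes were), with a median of 0.78. In dex all 6 were below siNS in siCCAR1 cells (8.9% of all genes were), and 1, MT1H, was below it in siCoCoA cells (9.07% of all genes). MT1X read 13.19, 12.89, 13.33 and 13.43 on siCoCoA arrays and 11.99, 11.54, 12.67 and 12.03 on siCCAR1 arrays. The siNS arrays, at 13.01 to 13.69, overlapped with siCoCoA alone, and the difference was 1.15 ± 0.28 (adjusted p = 0.00239). MT1G differed by 1.51 ± 0.27 (adjusted p = 5.65e-05), MT1F by 0.94 ± 0.26 (0.00623) and MT2A by 0.89 ± 0.18 (0.000227). Metallothionein genes are close paralogs, so their probes may share signal.

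The comparison was then read over the genes that dex itself changed in siNS cells, whose arrays are not among the 8. Dex raised 817 genes (7.7%) and lowered 913 (8.61%) in siNS cells. Of the 182 raised at least 2-fold, 88 (48.4%) were higher in siCoCoA than in siCCAR1 cells and 6 (3.3%) lower, against 12.7% and 11.8% of all genes, with a median of 0.46. Of these 182, 70 were below siNS in siCCAR1 cells (8.9% of all genes were) and 16 in siCoCoA cells (9.07% of all genes). The count of 16 is near the share of all genes. The same siNS arrays in dex helped to choose these genes, so a level below siNS is favoured by the choice. Of the 63 genes that dex lowered at least 2-fold, 22 (34.9%) were higher in siCoCoA cells and 2 (3.17%) lower, with a median of 0.28. Of these 63, 37 were above siNS in siCoCoA cells (11% of all genes were) and 15 in siCCAR1 cells (10.1% of all genes), with the same reserve. Without the 2-fold limit, the 817 raised genes held 245 higher (30.0%) and 65 lower (7.96%), with a median of 0.17, while the 913 lowered genes split evenly, with 163 higher (17.9%) and 164 lower (18.0%).

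**Figure D4:**
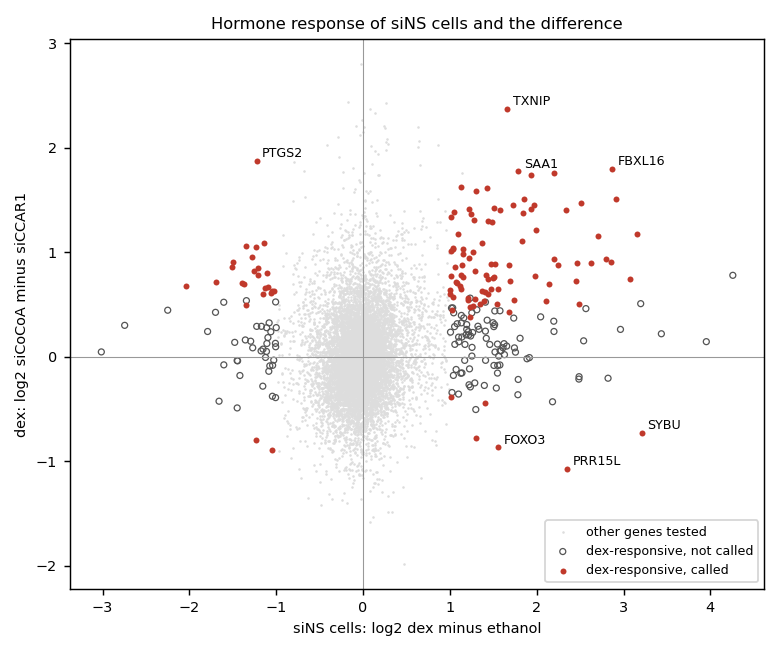
Log2 change by dex in siNS cells (horizontal) against the log2 difference in dex between siCoCoA and siCCAR1 (vertical) for all tested genes; larger points are genes that dex changed at least 2-fold in siNS cells, filled where the difference was called. Most filled points lie above 0 on both sides, 88 of the raised and 22 of the lowered genes, with PTGS2 on the lowered side and TXNIP on the raised side.

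The 6 dex-raised genes that ran the other way included PRR15L, a proline-rich protein gene, and FOXO3, the forkhead factor of stress resistance and atrophy programmes. PRR15L read 6.63, 7.48, 7.36 and 7.49 on siCoCoA arrays and 8.06, 8.10, 8.18 and 8.90 on siCCAR1 arrays, a difference of −1.07 ± 0.20 (adjusted p = 0.000147). FOXO3 read 8.74, 9.01, 9.15 and 8.90 against 9.82, 9.69, 9.91 and 9.82, a difference of −0.87 ± 0.14 (adjusted p = 1.19e-05), and lay below siNS (9.24 to 9.84) in siCoCoA cells. Neither gene's groups overlapped. SYBU, a protein of kinesin transport along microtubules and with FOXO3 the lower pair of the GR induced list, differed by −0.73 ± 0.23 (adjusted p = 0.0169), a call lost without siCoCoA array 1 (−0.58) or siCCAR1 array 4 (−0.63).

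The largest falls were smaller than the largest rises. CEMIP2 read 9.42, 9.44, 9.77 and 9.41 on siCoCoA arrays and 11.57, 11.44, 11.54 and 11.39 on siCCAR1 arrays, with siNS at 10.36 to 10.57. Each depletion thus moved this hyaluronidase away from siNS in its own direction, both called, and the difference of −1.98 ± 0.10, or 3.94-fold, had the smallest adjusted p of the named genes (1.5e-16). ST6GAL1, the sialyltransferase of N-glycans, behaved alike in sign, at 6.71, 6.40, 6.98 and 6.43 against 8.24, 7.94, 8.24 and 8.02 (difference −1.48 ± 0.16, adjusted p = 1.11e-08). ALKBH5, an RNA demethylase for N6-methyladenosine, read 10.56, 10.55, 10.60 and 10.57 against 12.03, 11.93, 11.92 and 11.83. The siNS arrays of ALKBH5 (11.59 to 11.93) overlapped with siCCAR1 only, and the difference was −1.36 ± 0.12 (adjusted p = 1.14e-10). The other large falls were FBXO15 (−1.58 ± 0.19), TMEM45A (−1.53 ± 0.26), C2orf15 (−1.48 ± 0.20), MARCKSL1 (−1.42 ± 0.12), CEP78 (−1.40 ± 0.16), TOMM34 (−1.37 ± 0.15), RAVER2 (−1.35 ± 0.17) and PHLDB1 (−1.34 ± 0.19). The siCoCoA levels of FBXO15 and RAVER2 were near background. AGAP3 fell by 1.36 on its brightest probe, but its probes ran from −1.36 to 0.33 and disagreed in sign.

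Of 34 tested mitosis genes, 14 were called lower in siCoCoA cells, against 11.8% of all genes, and 20 were not called. Differences were positive for 3, the median was −0.40, and leaving out 1 array moved the count between 10 and 19. CDK1, the kinase that drives entry into mitosis, read 8.67, 9.05, 8.71 and 8.22 on siCoCoA arrays and 9.45, 9.67, 9.16 and 9.41 on siCCAR1 arrays, with siNS at 9.36 to 9.95. The difference was −0.76 ± 0.15 (adjusted p = 0.00027) without overlap, and CDK1 was below siNS by a called amount in siCoCoA cells but not in siCCAR1 cells (−0.24). KIF2C, a microtubule depolymerase of centromeres, differed by −0.83 ± 0.21, the motor CENPE by −0.76 ± 0.18, and DLGAP5, a spindle protein, by −0.67 ± 0.17. Against siNS, 29 of the 34 genes were lower in siCoCoA cells (9.07% of all genes were) and 11 in siCCAR1 cells (8.9%), and 33 had siNS above both depletions. Of 26 tested replication and S phase genes, 4 (15.4%) were lower, a share near the 11.8% of all genes, with a median of −0.28. That count was 9 with the replicate block, 8 without siCoCoA array 2, 2 without siCoCoA array 1, 1 without siCCAR1 array 2, and 0 without siCoCoA array 3, siCoCoA array 4 or siCCAR1 array 1, in limma, where 7 were lower at an unadjusted p under 0.05.

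Metabolic lists held called genes of both signs, and over all genes 12.7% were higher and 11.8% lower. Of 23 tested ATF4 and amino acid stress genes, 3 were higher and 6 lower (10 with the replicate block), with a median of −0.21. The higher count was near the share of all genes. PHGDH, the first enzyme of serine synthesis, read 8.69, 8.78, 8.81 and 8.22 against 9.83, 9.76, 9.63 and 9.59, a difference of −1.08 ± 0.13 (adjusted p = 4.9e-08), with siNS (9.65 to 10.11) near the siCCAR1 arrays. PSPH, the last enzyme of the same pathway, differed the other way, by 0.73 ± 0.17 (adjusted p = 0.00125). PYCR1, of proline synthesis, differed by −1.25 ± 0.20 on its brightest probe and by −0.04 on another. SLC7A11, the cystine transporter shared by the ATF4 and NRF2 lists, differed by −0.97 ± 0.13. VLDLR, a lipoprotein receptor, was higher by 1.37 ± 0.18. Of 15 tested sterol synthesis genes 2 were higher, again near the share of all genes, and 6 lower, with a median of −0.33. FDPS (−0.74 ± 0.16) and SQLE (−0.63 ± 0.15) were lower, and HMGCS1, the synthase early in the pathway, was higher (0.56 ± 0.11). Of 23 glucose and lipid genes 5 (21.7%) were higher and 5 (21.7%) lower, among them the fatty acid synthase FASN (−0.84 ± 0.14) and the glucose transporter SLC2A3 (0.80 ± 0.21).

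Of 20 tested p53 targets, 2 (10.0%) were higher and 4 (20.0%) lower, beside 12.7% and 11.8% of all genes, and the lower count was 7 with the replicate block and 7 without siCCAR1 array 2; the higher count was 1 without siCCAR1 array 4. SPATA18, a mitochondrial quality control gene, differed by −1.18 ± 0.19, and TRIAP1, a survival protein, by −0.86 ± 0.12. The death receptor TNFRSF10B differed by −0.83 ± 0.12, and the quinone oxidoreductase TP53I3 was higher by 0.88 ± 0.14. Of 28 GR and coregulator genes, 4 were higher and 5 lower, counting the siRNA targets, beside 12.7% and 11.8% of all genes. The higher count was near the share of all genes. The counts fell to 1 higher without siCoCoA array 1 and 3 lower without siCCAR1 array 1. FKBP4, a cochaperone of the receptor, was lower by −0.87 ± 0.14 (adjusted p = 2.06e-05). Ribosomal protein genes stood in contrast: of 30 tested, 0 were called by limma in either direction, with 1 higher and 2 lower at an unadjusted p under 0.05.

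Markers of cell types that an A549 culture should lack were checked. PTPRC, CD3E and LYZ, of leukocytes, did not rise above 4.75, 4.81 and 4.85 on any array. CD14 and CD68, which are read as monocyte and macrophage markers, were above background and higher in siCoCoA cells, by 1.67 ± 0.21 and 1.98 ± 0.31. The summed linear intensity of the 5 leukocyte markers ran from 1640 to 2200 on siCoCoA arrays, 450 to 889 on siCCAR1 arrays and 587 to 1054 on siNS arrays, and their part in the results was not tested. Sums of 5 endothelial markers (111 to 115 and 104 to 114) and of 6 fibroblast markers (172 to 193 and 148 to 199) overlapped between the depletions. The 6 epithelial markers summed to 8558 to 10158 on siCoCoA and 8753 to 10008 on siCCAR1 arrays, both below siNS (11020 to 13695). In such bulk RNA, a changed number of cells of a kind and a changed amount of RNA per cell cannot be told apart.

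The place of siNS relative to the depletions is given as a description of the called genes. Of the 1350 genes higher in siCoCoA, siNS lay between the depletions for 887, below both for 280 and above both for 183. Against siNS, 451 were higher in siCoCoA cells alone, 437 were lower in siCCAR1 cells alone, 77 moved in opposite directions, 73 were higher in both, 17 were lower in both and 295 were called in neither. Of the 1251 lower genes, siNS lay between for 898; 433 were lower in siCoCoA cells alone, 373 higher in siCCAR1 cells alone and 53 moved in opposite directions. Over all genes tested, 11% were higher and 9.07% lower than siNS in siCoCoA cells, and 10.1% and 8.9% in siCCAR1 cells. These comparisons share the siNS arrays and the arrays of the depletions, so the counts describe the same samples. The genes were chosen because the depletions differed on these arrays. That choice itself favours siNS lying between them and calls against siNS on the matching side, so the counts do not decide which depletion moved. The rises with opposite movement were led by TXNIP (1.30 against siNS in siCoCoA cells and −1.07 in siCCAR1 cells), followed by TCN1, a vitamin B12 binder (0.90 and −1.30), CCL26, an eosinophil chemokine (0.84 and −1.27), TGM2, a transglutaminase (1.24 and −0.79), and SLC51B, a subunit of the organic solute transporter (0.79 and −1.24). CCL26 read 7.66, 7.02, 6.96 and 7.27 on siCoCoA arrays and 5.09, 5.35, 5.01 and 5.04 on siCCAR1 arrays, with siNS between at 6.07 to 6.65 and no overlap. SLC51B read 10.01, 9.87, 10.19 and 9.96 against 7.99, 7.81, 8.46 and 7.66, again with siNS between, at 8.99 to 9.50.

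The last question was whether hormone set the difference. The ethanol arrays are separate from the 8, but same-numbered dex and ethanol arrays of an siRNA deviated together. Their correlations were 0.127 to 0.415 in siCoCoA cells and 0.151 to 0.294 in siCCAR1 cells. For unlike numbers these were −0.298 to 0.058 and −0.216 to 0.055. The ethanol arrays are therefore not an independent repeat. In them 1067 genes (10.1%) were higher and 1003 (9.46%) lower in siCoCoA cells. Of the 1350 genes higher in dex, 1311 had the same sign in ethanol and 833 were called higher there too, which is 61.7% of the dex calls and 78.1% of the ethanol calls. Of the 1251 lower, 1230 had the same sign and 731 were called, 58.4% and 72.9%. One gene, GADD45A, was called in opposite directions, 0.42 in dex and −0.43 in ethanol. Its dex call was lost without siCCAR1 array 4 (0.34), and also where the mean of its probes replaced the brightest probe. The difference between the dex responses themselves was called for 1 gene of 10608 (0.00943%), and 396 (3.73%) passed an unadjusted p under 0.05.

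**Figure D5:**
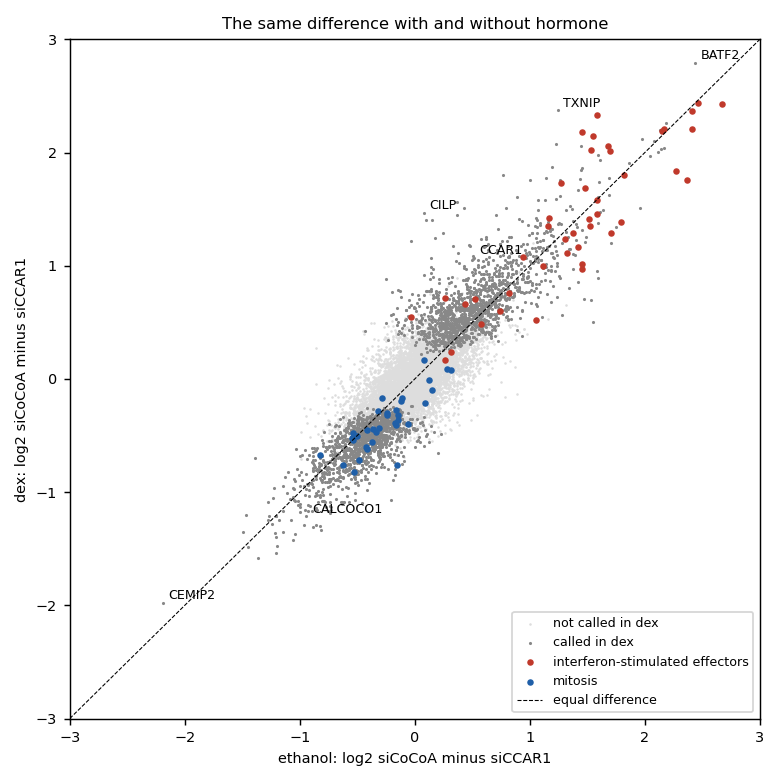
Log2 difference between siCoCoA and siCCAR1 in ethanol (horizontal) and in dex (vertical) for all tested genes, with interferon-stimulated effectors in red, mitosis genes in blue and a dashed line of equal difference. The interferon-stimulated effectors lie at upper right in both treatments (medians 1.46 in ethanol and 1.39 in dex), CEMIP2 at lower left, and CILP above the line, at 0.08 in ethanol and 1.47 in dex.

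That gene was CILP, which encodes a matrix protein of cartilage and which dex raised in siNS cells by 2.51 ± 0.14. In dex it read 7.35, 7.51, 7.74 and 7.70 on siCoCoA arrays and 6.21, 5.66, 6.57 and 5.99 on siCCAR1 arrays, with siNS at 6.81 to 7.58. In ethanol it read 4.62, 4.62, 5.04 and 4.76 and 5.03, 4.57, 4.40 and 4.71, near background in both. The dex response was 2.82 ± 0.17 in siCoCoA cells and 1.43 ± 0.17 in siCCAR1 cells, and the responses differed by 1.38 ± 0.24 (adjusted p = 0.0185). That call, in limma, was lost without any one of several arrays: the difference was 1.33 without siCoCoA array 3, 1.34 without siCoCoA array 4 and 1.23 without siCCAR1 array 2 in dex, and in ethanol 1.34 without siCoCoA array 1, 1.34 without siCoCoA array 2, 1.38 without siCoCoA array 4, 1.27 without siCCAR1 array 1 and 1.37 without siCCAR1 array 4. Other genes with large differences had responses that were not called as different: TXNIP rose by 1.70 ± 0.31 with dex in siCoCoA cells and changed by 0.57 ± 0.31 in siCCAR1 cells, a difference of 1.13 ± 0.43 with an adjusted p of 1. TXNIP read 4.72, 4.56, 5.07 and 4.98 on the siCCAR1 arrays in ethanol, near background, so its response there may be understated, which was not tested. For FBXL16 the responses were 2.62 ± 0.24 and 1.59 ± 0.24, and for SAA1 they were 1.51 ± 0.21 and 0.88 ± 0.21, each called in both depletions. Dex raised 5.36% of all genes in siCoCoA cells and 4.33% in siCCAR1 cells.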

How the data were processed

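Total RNA of A549 cells was hybridised to 40 Illumina expression arrays, of which 8 form the comparison. The authors deposited log2 normalized probe intensities; limma 3.14.4 is named per the submitters' processing notes, and the background correction, the normalization method and the probe filter are not given in the sources used here. The log base was read from the values, which ran from 4.13 to 14.3 with array medians of 4.67 to 4.69. A table of non-normalized signals has 80 columns headed by chip positions that the labels do not tie to samples; they were not used here.

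Of 34469 probes, 26360 had 1 gene symbol in the platform annotation, 3 had several and 8106 had no entry; only the first were used. Probes with a mean above 5 in at least 1 group were kept (13903), and the brightest probe stood for each gene (10608 genes, 2672 of them with more than 1 such probe). Group means were fitted in limma 3.58.1 (R 4.3.3; lmFit, then eBayes) to all 40 arrays, which share the spread estimate (30 residual and 5.86 prior degrees of freedom), and were compared by contrasts. Tests were 2-sided with Benjamini-Hochberg adjustment over all genes, and the procedure was tested on simulated data. Named genes were the 12 largest called rises and falls, NR3C1 and the siRNA targets, the 5 largest called members per list, the 6 largest rises and falls among genes with a dex response of 2-fold or more in siNS cells, the 5 of each sign that moved in opposite directions against siNS, the 4 of each sign in the difference of responses, and the RNA sensor and interferon lists in full. The comparison, the lists and the rules were chosen with earlier results of these data known. Same-numbered siCoCoA and siCCAR1 arrays deviated together in dex (correlations of 0.105 to 0.300, against −0.235 to 0.085 for unlike numbers). In ethanol the correlations of same-numbered arrays were 0.064 to 0.269. The fit as reported leaves the number out, so its p-values are not those of a paired test. A fit with the number as a block was an alternative, with 3226 genes called in dex against 2601 as reported. The other alternatives were the 8 arrays alone, probe filters, probe choice, normalization, variance model, array weights and leaving out each array. Promoter sequences were RefSeq's for GRCh38.p14.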

Additional observations from a re-analysis of the deposited data

Results flagged for a closer look

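Within groups of 4 arrays, a single array stood far from the other 3 in 22 of the 322 groups of named genes searched (6.83%). For independent groups, chance would give such a value in about 1 of 20. The groups are not independent, since genes on the same array can move together, so this rate does not decide whether chance gave these values. Several fell on siCCAR1 array 2, which also stood apart on the interferon-stimulated effectors. On siCCAR1 array 2 the level was above its group for IRF7 (9.76), PSMB9 (8.54), PSMB8 (9.28), LCN2 (10.5), CFB (9.20) and RNF43 (7.44), and below it for ACO1 (8.86) and VIPR1 (7.97). On siCCAR1 array 4 it was above for FDPS (8.93), KRT19 (8.99) and PRR15L (8.90) and below for THBS1 (9.04). MT1H was high on siCCAR1 array 3 (7.59) and TYK2 on siCCAR1 array 1 (8.39). Among siCoCoA arrays, CEMIP2 was high on array 3 (9.77), MCM10 on array 2 (8.22), KRT19 on array 4 (10.1), and TP53I3 (11.96) and IRF3 (7.76) on array 1. USP18 was low on siCoCoA array 4 (8.70), and SAA1 (6.59) and PRR15L (6.63) were low on array 1. KRT19 was thus high on array 4 of both depletions.

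CILP answered dex unequally in the depletions by the test of that difference, 1.38 on the log2 scale between siCoCoA and siCCAR1 cells.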

How the results depend on the processing

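No called direction among the 161 named genes reversed in the settings run for it, 17 for 156 genes and 16 for the other 5, which the stricter intensity filter removed. Of the 139 called, 106 also kept their call in every setting run and 33 lost it in at least 1 setting, 32 of these when an array was left out; 8 of the 22 not called passed in some setting. The number of genes called in dex ran from 2098 without siCCAR1 array 1 to 3226 with the replicate number as a block, and was 3158 with array weights and 2343 with no filter on low values. The 8 arrays fitted alone gave 2485, of which 2212 were shared with the fit to all 40. With the replicate block, all 2601 genes stayed called, and among named genes it added IFNL2, IL10RB, IRF1 and STAT3. The count of genes whose dex response differed was 2 with the replicate block and ran from 0 to 2 when single arrays were left out (1 in the fit as reported, 396 at an unadjusted p under 0.05). Counts of higher and lower genes in dex and in ethanol, and the counts of higher genes among those that dex changed in siNS cells, stayed within 1.5 times the reported ones. Levels near the background of 4.39, the most frequent value, limit what can be said of CALCOCO1, CCAR1, IFNB1 and the IFNL genes.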

Other observations

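Other lists, also chosen with earlier results known, had medians of −0.16 to 0.13 in dex. Over all genes tested, 12.7% were higher and 11.8% lower. Of 13 clock genes tested, 5 (38.5%) were higher (median 0.13). Among them were NPAS2, a partner of the clock activator BMAL1 (0.93 ± 0.17, adjusted p = 8.05e-05), and BHLHE40, a repressor of the clock (0.48 ± 0.12, adjusted p = 0.00307). The clock count was 3 without siCoCoA array 1, siCoCoA array 3 or siCCAR1 array 2. Of 20 NRF2 targets, 2 were higher and 3 lower (5 lower with the replicate block), with SRXN1, which repairs oxidised peroxiredoxins, at 0.78 ± 0.14; the higher count was 1 without any one array except siCoCoA array 4 and siCCAR1 array 3. Of 11 iron genes, 1 (9.09%) was higher and 3 (27.3%) lower. The higher gene, the ferroxidase CP (0.64 ± 0.22), lost its call without siCoCoA array 1 (0.48) or 3 (0.64), or siCCAR1 array 2 (0.60) or 4 (0.49). TFRC, the transferrin receptor, differed by −0.83 ± 0.13 (adjusted p = 8.06e-06) and was also the single called member of 13 housekeeping genes.

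Of 20 matrix and adhesion genes, 2 were higher and 5 lower. The higher pair were hemidesmosome partners: LAMB3, a laminin chain, at 1.37 ± 0.23 (adjusted p = 1.92e-05), and ITGB4, an integrin chain, at 1.00 ± 0.25 (adjusted p = 0.00257). The lower count rested on single arrays: it was 0 without siCCAR1 array 1, 1 without siCoCoA array 2, 2 without siCoCoA array 1, siCoCoA array 4 or siCCAR1 array 2, and 3 without siCoCoA array 3 or siCCAR1 array 3. Of 13 Wnt targets, 4 (30.8%) were higher and 2 (15.4%) lower. DKK1, a secreted Wnt inhibitor, read 12.49, 12.38, 12.21 and 11.88 on siCoCoA arrays and 11.36, 11.24, 11.41 and 11.33 on siCCAR1 arrays, with siNS at 11.67 to 11.91. The siNS arrays lay above all siCCAR1 arrays and met the siCoCoA range at its lowest array. Its difference was 0.91 ± 0.11 (adjusted p = 1.86e-07). The higher Wnt count was 2 without siCoCoA array 4 or siCCAR1 array 4.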
